A study of Macaca fascicularis with 64 samples.

Results

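The collagen genes of the cynomolgus monkey (Macaca fascicularis) were followed across 7 newborn tissues, 2 SIRT6 genotypes and 2 fetal stages. Members were taken by name, as every gene listed in both deposited tables with a symbol of the form COL, number, A, number, and 43 of the 28141 listed genes met this rule. RNA was sequenced in 56 libraries of newborn tissue (brain, lung, heart, liver, kidney, thymus and muscle) and in 8 libraries of fetal brain and muscle. The newborn tissues came from 2 SIRT6 mutant animals, titled KO2 and KO3, and 2 wild-type animals, titled WT2 and WT3, with 2 libraries for each animal and tissue. The fetal libraries were wild type, from gestation months 2 and 4, with 2 libraries for each month and tissue. The series' design text writes the mutant genotype as SIRT6-/-, and no label says what the mutation is. Whether the fetal libraries of a group are separate fetuses is not stated, and the spread behind their p-values may be technical.

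Collagens are the structural proteins of the extracellular matrix, and each molecule is a helix of intertwined alpha chains encoded by separate genes. Fibrillar types such as I, III and V form the fibers that give connective tissue its tensile strength, type IV forms the sheet-like network of basement membranes, and type VI forms beaded microfilaments around cells. FACIT collagens (fibril-associated collagens with interrupted triple helices) sit on the surface of fibrils, types II, IX and XI build cartilage fibrils, and the multiplexins XV and XVIII lie near basement membranes, where type XVIII carries the endostatin fragment. By these classes the 43 genes comprised 11 fibrillar, 6 basement membrane, 5 type VI, 9 FACIT, 4 network forming and anchoring, 4 transmembrane and 2 multiplexin collagens and 2 others, COL26A1 and COL28A1. In a RefSeq gene table of the species, 6 pairs of members lay next to each other with no other protein-coding gene between them, namely COL3A1 with COL5A2, COL4A1 with COL4A2, COL4A3 with COL4A4, COL6A1 with COL6A2, COL6A5 with COL6A6, and COL9A1 with COL19A1.

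Levels are given as FPKM, a fragment count scaled by transcript length and by the library's mapped fragments, which can be compared between genes because they are per length. The marker genes of each of the 7 tissues had their highest summed level in their own tissue in 8 of 8 libraries. Repeat libraries of an animal correlated over all genes at 0.9912 to 0.9958, and the 2 animals of a genotype at 0.8749 to 0.975, so the animal and not the library was taken as the replicate. SIRT6 itself was listed at 3.07 to 12.4 FPKM in the mutants and 6.18 to 12.4 in the wild types, ranges that overlap, so its level does not check the genotype labels. FPKM keeps no read depth, and no counting interval can be given. In bulk tissue, fewer cells of a type and less RNA per cell cannot be told apart.

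Collagens made up a small and very uneven share of the transcripts. Their summed FPKM was 0.0356% to 1.31% of the sum over all genes in the newborn libraries, with a median of 0.233%, and reached 3.81% in a library of fetal muscle at month 4. Between 18 and 33 of the 43 genes reached 1 FPKM in a newborn library. The 3 genes of the main fibers, COL1A1 and COL1A2 of type I and COL3A1 of type III, held 5.36% to 78.9% of all collagen FPKM in newborn libraries. Newborn muscle of the wild-type animals summed to 7600 and 4300 FPKM of collagen, against 143 and 181 in their brains.

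**Figure D1:**
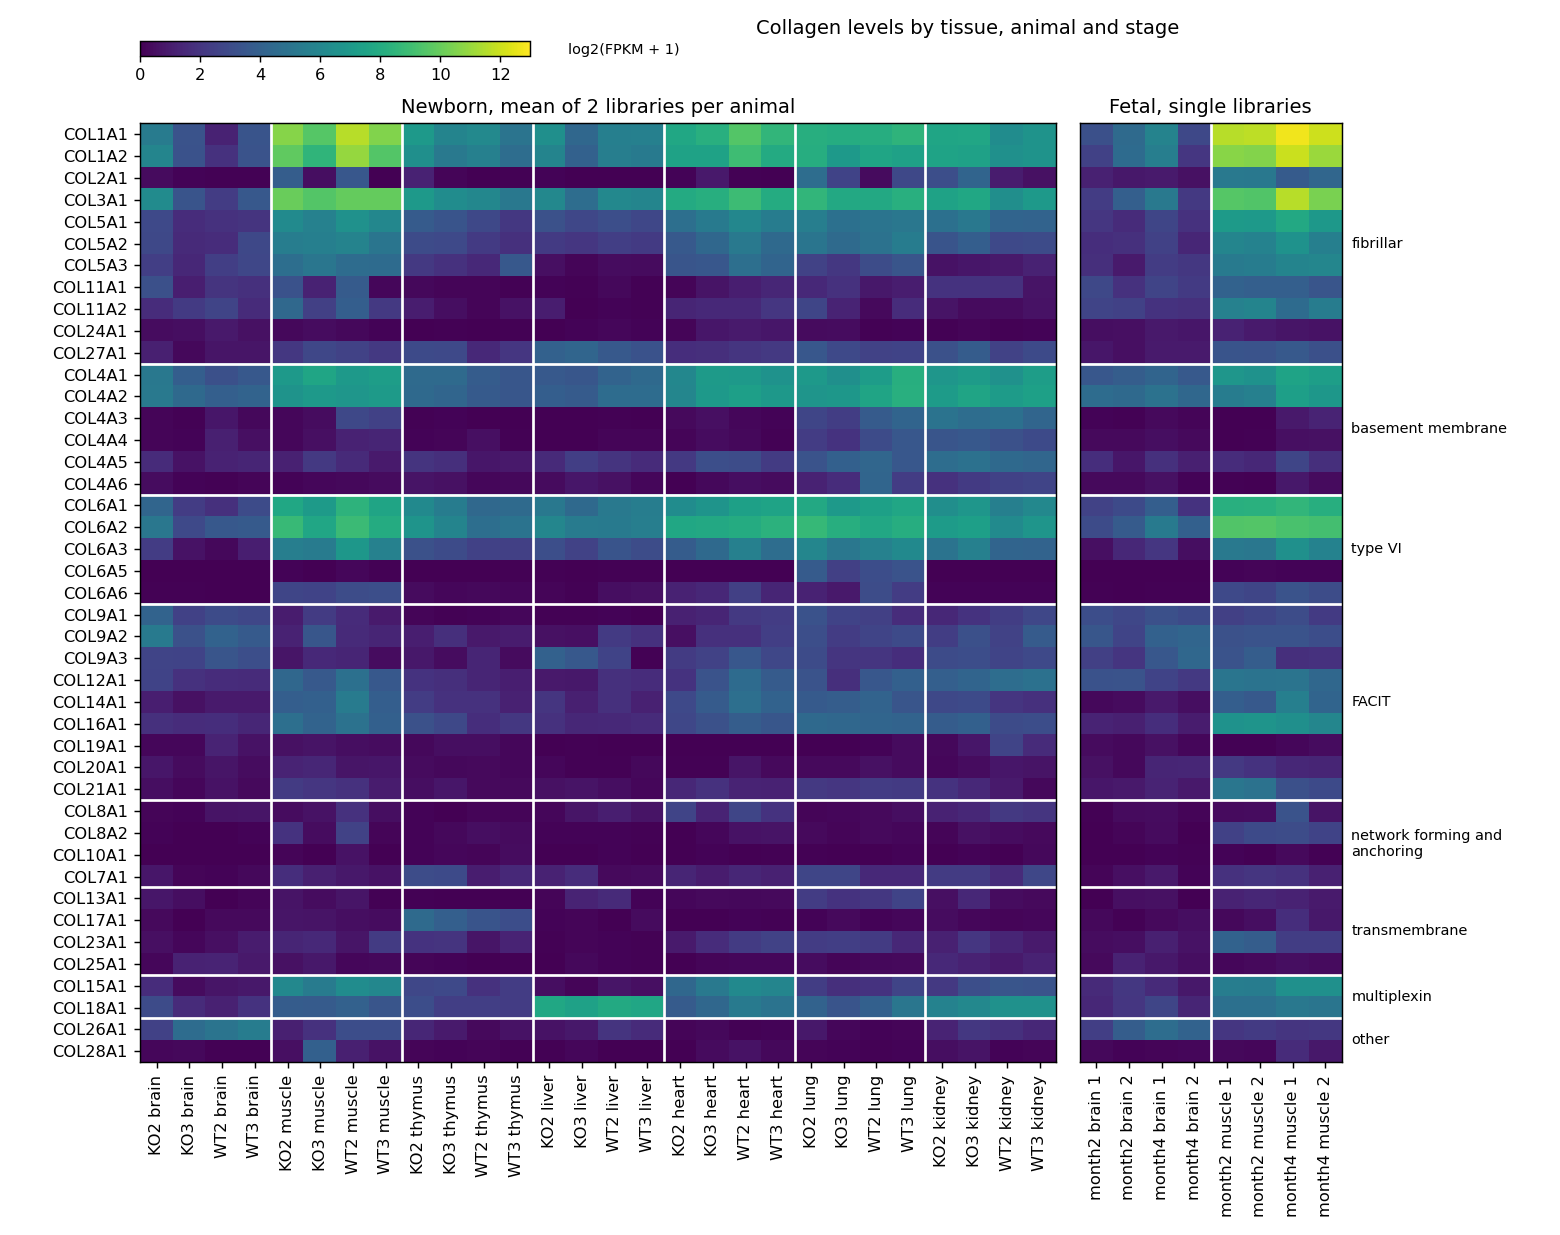
Level of each of the 43 collagens as log2(FPKM + 1), with genes as rows grouped by class and samples as columns. Newborn columns are means of 2 libraries of an animal, fetal columns are single libraries, and the tables behind the 2 panels were normalised separately. COL1A1, COL1A2 and COL3A1 are brightest in muscle, COL18A1 in liver, and COL17A1 stands above the other tissues in thymus.

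The first question was where each collagen is made in normal newborn tissue, which the wild-type animals answer. Muscle held the highest wild-type mean of 20 of the 43 genes, lung of 7, brain and kidney of 5 each, heart of 3, liver of 2 and thymus of 1. Of the 40 genes that reached 1 FPKM in a wild-type animal of their top tissue, that tissue lay above the next tissue in both animals for 17, so for the remainder the first 2 tissues overlapped. Each tissue was compared with the mean of the other 6, in a single limma fit of 14 values in which 35 collagens passed a mean of 1 FPKM. Log2 changes are on the log2(FPKM + 1) scale, which understates changes of low genes, and are given relative to the median change of all genes tested, while the adjusted p tests the change before that subtraction.

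The type I and type III chains were highest in muscle and lowest in brain, an order that other fibrillar members did not all share: COL27A1 was highest in liver, and COL11A1 and COL11A2 had brain second. COL1A1, which encodes the alpha 1 chain of type I collagen, was at 3060 and 1510 FPKM in muscle of WT2 and WT3. It was at 732 and 382 in heart, 269 and 353 in lung, 77.9 and 102 in kidney, 67.4 and 31.4 in thymus, 48.4 and 49.3 in liver, and 1.33 and 9.3 in brain. Muscle, heart, lung and kidney fell in this order without overlap, whereas thymus and liver overlapped. COL3A1, the type III chain of extensible tissues, was at 975 and 990 FPKM in muscle and 3.91 and 10.9 in brain, and heart (479 and 256) overlapped lung (226 and 294). In muscle, 19 collagens were higher and 6 lower than in the other tissues, beside 12.8% and 40.8% of all genes, and 7 of the 10 fibrillar members tested were higher. COL1A1 led with a log2 change of 5.30 (SE 0.48, limma adjusted p = 1.7e-05), followed by COL1A2 at 4.70 and COL3A1 at 4.10. The lowest in muscle were COL9A3 at -0.88, COL4A5 at -0.81 and COL9A2 at -0.58. COL6A5, also called lower, stood at 0.02 once the all-gene median of -0.45 was subtracted, so its direction depends on the scaling.

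Heart was led by a multiplexin, with most fibrillar members also higher. There 19 collagens were higher and 5 lower, beside 12.2% and 30.4% of all genes, and 6 of 10 fibrillar members were higher. COL15A1, a multiplexin of the basement membrane zone of muscle and capillaries, was at 72.2 and 59.2 FPKM in heart and 78.4 and 63.0 in muscle of the 2 wild-type animals, which overlap. Its log2 change in heart was 3.82 (SE 0.22, limma adjusted p = 6.6e-07), ahead of COL1A1 at 2.81 and COL1A2 at 2.52, and in muscle it was 4.07. The lowest in heart were COL26A1 at -1.62, COL4A3 at -1.46 and COL4A4 at -1.0.

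Basement membrane collagens followed a different map, led by lung and kidney. COL4A1 and COL4A2 encode the chains found in nearly all basement membranes, and COL4A3, COL4A4 and COL4A5 those of the glomerular and alveolar basement membranes. All 6 members were higher in lung and all 6 were higher in kidney, beside 21.4% and 27.5% of all genes. In contrast, 6 of 6 were lower in brain and 6 of 6 were lower in thymus, beside 30.7% and 33.3% of all genes. Most other collagens were also lower in brain and thymus, so the low values there are not particular to this class. COL4A1 was at 144 and 279 FPKM in lung, 125 and 152 in muscle, 94.4 and 149 in kidney and 128 and 97.5 in heart, and these 4 tissues overlapped in sequence. COL4A3 was at 27.3 and 18.1 FPKM in kidney, 12.3 and 17.5 in lung, 6.01 and 4.64 in muscle and 0.731 and 0.219 in brain, with every other tissue below 0.2 and no overlap between neighbours down to brain. Thus COL4A3 separated organs that COL4A1 did not.

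In kidney, 13 collagens were higher and 4 lower, beside 27.5% and 11.8% of all genes. COL4A3 led at 3.04 (SE 0.20, limma adjusted p = 2.8e-07), then COL4A5 at 2.15 and COL18A1 at 2.11, and the lowest were COL5A3 at -2.17, COL6A6 at -1.55 and COL6A5 at -0.81. In lung, 18 were higher and 4 lower, beside 21.4% and 17.9% of all genes. The lung list was led by COL6A5, a type VI chain, at 7.42 and 9.02 FPKM in WT2 and WT3 and below 0.2 in every other wild-type tissue. It reached the mean of 1 FPKM needed for testing only through lung. Its log2 change was 3.05 (SE 0.11, limma adjusted p = 8.9e-09), followed by COL4A3 at 2.56 and COL4A6 at 2.50. COL4A6 rested unequally on the animals, at 17.8 FPKM in WT2 and 4.01 in WT3. The lowest in lung were COL26A1 at -1.97, COL15A1 at -0.99 and COL8A1 at -0.89.

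Brain, liver and thymus each had 1 collagen whose rise over the other tissues exceeded that of any other member there. In brain this was COL26A1, at 31.4 and 43.4 FPKM against 7.38 and 7.43 in muscle, the next tissue. Its log2 change was 4.09 (SE 0.18, limma adjusted p = 4.3e-09), and COL9A2 (1.87), COL9A1 (1.53) and COL9A3, the chains of type IX collagen, were the other members called higher. These 4 stood against 25 lower, beside 29.2% of all genes higher and 30.7% lower, and COL1A1 (-5.33), COL1A2 (-4.60) and COL3A1 (-4.46) were lowest. In liver, COL18A1 was at 234 and 205 FPKM against 92.8 and 93.7 in kidney, and more than any other collagen there, with COL1A1 at 48.4 and 49.3. It changed by 4.26 (SE 0.28, limma adjusted p = 1e-06), COL27A1 by 1.87, and the other 24 called members were lower, among them COL15A1 (-2.36), COL5A3 (-2.21) and COL4A3 (-1.49), beside 13.5% of all genes higher and 42.8% lower. In thymus, COL17A1, the transmembrane hemidesmosome collagen of stratified epithelia, was at 9.27 and 7.33 FPKM and below 0.5 in every other wild-type tissue. It reached the mean of 1 FPKM needed for testing only through thymus. Type I and type III chains had higher FPKM levels than COL17A1 in thymus, with COL1A1 at 67.4 and 31.4. COL17A1 was the 1 member higher than in other tissues (3.01, SE 0.13, limma adjusted p = 2.1e-08) against 28 lower, beside 29.5% and 33.3% of all genes, with COL4A2 (-2.68), COL18A1 (-2.47) and COL4A1 (-2.34) lowest.

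**Figure D2:**
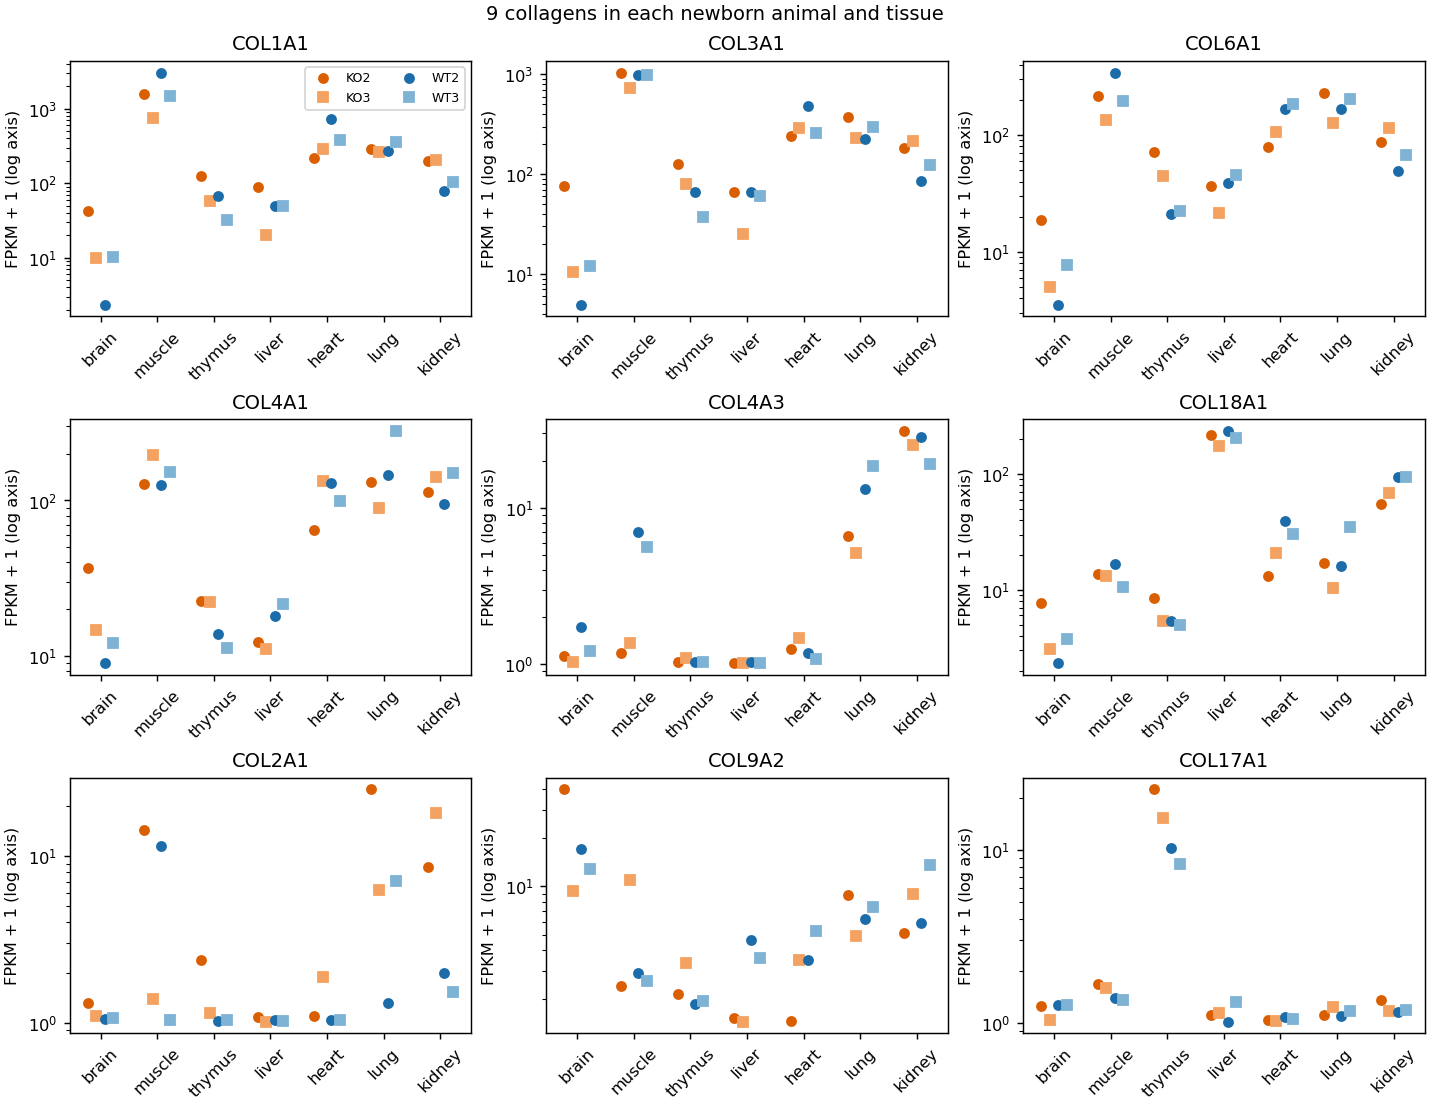
FPKM + 1 on a log axis for 9 collagens in the 7 newborn tissues, 1 point per animal (mean of 2 libraries), orange for the SIRT6 mutants KO2 and KO3 and blue for the wild types WT2 and WT3. COL4A3 is high in kidney and lung and, in muscle, is above 4 FPKM in the wild types alone, and COL2A1 is above 7 FPKM in both mutant kidneys and below 1 in both wild-type kidneys.

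Chains that assemble together differed in how closely their levels moved. The ratio of COL1A1 to COL1A2 ranged from 0.512 to 2.09 over all newborn animals and tissues, and that of COL4A1 to COL4A2 from 0.553 to 1.54. COL6A1 was below COL6A2 throughout, at a ratio of 0.229 to 0.971. The ratio of COL4A3 to COL4A4 was 1.44 to 3.28 in lung and kidney, the 2 tissues where both passed 1 FPKM in every animal. COL3A1 against COL1A1, chains of different molecules, spread more widely, from 0.319 to 2.94.

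Cartilage collagens were detected outside cartilage and varied between animals within a tissue. COL2A1, the main chain of cartilage fibrils, was at 13.4 and 0.377 FPKM in muscle of KO2 and KO3 and at 10.6 and 0.0326 in muscle of WT2 and WT3. COL11A1, its partner chain, was at 8.73, 1.34, 12.1 and 0.174, and COL11A2 at 20.2, 4.54, 13.6 and 3.53. Within each genotype the animal numbered 2 was the higher one for all 3 genes. The summed chondrocyte markers (9 listed) ranged from 4.12 to 91.2 FPKM in wild-type and 4.13 to 10.5 in mutant muscle libraries. COMP, at 56.8 in WT2 muscle and 1.4 in KO2, made up much of the highest sum. The other markers are not given singly, so COMP does not stand for the list. The part of these markers in the collagen levels was not tested. In lung, COL2A1 was at 24.2, 5.23, 0.307 and 6.14 FPKM in KO2, KO3, WT2 and WT3, where the genotypes overlapped. COL10A1, the hypertrophic cartilage collagen, stayed under 1 FPKM in every wild-type tissue.

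The second question was how SIRT6 mutation changed collagen levels in each newborn tissue. In the tests of 7 tissues, 2 collagens passed the threshold of an adjusted p under 0.05, COL2A1 in kidney and COL4A3 in muscle. Each reached the mean of 1 FPKM needed for testing only through its high group. That group was mutant kidney for COL2A1 and wild-type muscle for COL4A3. With 2 animals against 2, an exact permutation test cannot reach that threshold, and the calls rest on limma's sharing of the spread across genes. Values below are given in the order KO2, KO3, WT2, WT3.

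COL2A1 was higher in mutant kidney. Its 8 libraries were at 8.16 and 7.17 FPKM in KO2, 17.5 and 16.9 in KO3, 1.04 and 0.952 in WT2 and 0.47 and 0.566 in WT3. Each mutant library exceeded each wild-type library, and KO3 was more than KO2. The log2 change was 2.89 (SE 0.41, limma adjusted p = 0.008). It was the 1 collagen of 32 tested that passed, beside 1.02% of all genes higher and 4.76% lower in kidney. The call was lost without a level filter (adjusted p = 0.26). The kidney's chondrocyte marker sums were 25.7 to 34.5 FPKM in mutant and 25.0 to 30.8 in wild-type libraries, with 3 of 9 markers reaching 1 FPKM (MATN3, CHAD and SOX9), and ACAN, COMP, MATN1 and HAPLN1 were under 1 FPKM in all 4 animals.

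The main interstitial collagens of the kidney were also higher in both mutants, short of the threshold. COL1A1 was at 197, 205, 77.9 and 102 FPKM (log2 change 1.20, SE 0.29, limma adjusted p = 0.05), COL6A3, the large chain of type VI, at 29.9, 49.7, 17.1 and 16.5 (1.20, adjusted p = 0.07), and COL3A1 at 181, 213, 84.8 and 124 (0.97, adjusted p = 0.12). The groups did not overlap for any of these. Of the 32 members tested, 18 had both mutants above both wild types, where 22.9% of all genes did, and 7 had both below, where 29.5% did. All 8 fibrillar and all 3 type VI members tested were among the 18. Summed over its members, the fibrillar class was at 617, 672, 288 and 361 FPKM and type VI at 255, 327, 138 and 191. The 6 basement membrane members went different ways. COL4A1 (112, 140, 94.4 and 149 FPKM), COL4A2 and COL4A3 (30.0, 24.4, 27.3 and 18.1) overlapped, COL4A4 (9.72, 11, 8.33 and 6.51) and COL4A5 (24.1, 27.5, 20.4 and 18.9) were higher in both mutants, and COL4A6 (2.58, 3.68, 4.78 and 5.31) was lower in both, none past the threshold. With quantile normalisation 8 collagens passed in kidney, all higher, COL1A1 (adjusted p = 0.016) and COL6A3 (adjusted p = 0.031) among them. The share of all genes called with that normalisation is not given here, so the 8 cannot be set against it.

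A few genes that make or bind collagen passed in kidney, where 1.02% of all genes were higher and 4.76% lower. Of 20 folding and modification enzymes tested, 2 rose and none fell: P4HA1, a catalytic subunit of the prolyl 4-hydroxylase that stabilises the helix (log2 change 1.70, limma adjusted p = 0.029), and FKBP10, a collagen chaperone (1.80, adjusted p = 0.039). PCOLCE, which enhances removal of the procollagen C-propeptide, rose by 1.36 (adjusted p = 0.041), and the proteoglycan BGN by 1.26 (adjusted p = 0.037). None of 8 degradation genes, 7 receptors and 3 transcription factors passed. Summed fibroblast markers were 394 to 465 FPKM in mutant and 225 to 253 in wild-type kidney libraries, and smooth muscle and pericyte markers 175 to 198 against 311 to 414. Of the 10 fibroblast markers 9 reached 1 FPKM in mutant and 10 in wild-type kidney, and all 6 smooth muscle and pericyte markers did in both. The kidney's own markers summed to 504 to 750 FPKM in mutant and 3720 to 3790 in wild-type libraries, with 7 of 7 reaching 1 FPKM in both. The part of these lists in the collagen levels was not tested.

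COL4A3 was lower in mutant muscle. The libraries were at 0.179 and 0.168 FPKM in KO2, 0.361 and 0.363 in KO3, 5.83 and 6.18 in WT2 and 4.64 and 4.63 in WT3. The groups were far apart and the repeat libraries close. The log2 change was -2.31 (SE 0.45, limma adjusted p = 0.0056), for 1 of 33 collagens tested, beside 1.58% of all genes lower and 0.745% higher. Its call was lost without a level filter (adjusted p = 0.27), with quantile normalisation (0.058), without KO2 (0.06) and without WT2 (0.063). COL4A4, its neighbour and partner chain, was at 0.19, 0.434, 1.38 and 1.5 FPKM, too low to be tested there, also with no overlap. COL4A1 (126, 196, 125 and 152) and COL4A2 (99.6, 127, 114 and 134) overlapped. The change in COL4A3 in muscle differed from its mean change in the other 6 tissues by -2.23 (SE 0.27), which did not pass (limma adjusted p = 0.083), so it was not shown to be particular to muscle.

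Other collagens of mutant muscle spread to both sides. COL1A1 was at 1600, 749, 3060 and 1510 FPKM, where KO2 exceeded WT3 (log2 change -0.98, limma adjusted p = 0.22), and COL3A1 at 1040, 732, 975 and 990. Of the 33 tested, 4 had both mutants above both wild types (21.6% of all genes) and 4 had both below (20.2%). P4HA1 rose by 2.03 (adjusted p = 0.023), and PCOLCE2, a propeptidase enhancer, fell by 2.35 (adjusted p = 0.0078). COL28A1 was at 14.7 FPKM in KO3 muscle and 0.439, 1.23 and 0.534 in KO2, WT2 and WT3, a level found in 1 animal. Smooth muscle and pericyte markers summed to 125 to 185 FPKM in mutant and 333 to 501 in wild-type muscle libraries, and skeletal muscle markers to 29100 to 46000 against 60700 to 74200. The single skeletal muscle markers went both ways. ACTA1 (-1.53), MYF6 (-0.75) and CKM (-0.69) lay below 0, and MYOD1 (1.29), MYLPF (0.33) and TNNT3 (0.14) above. The part of these lists was not tested.

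**Figure D3:**
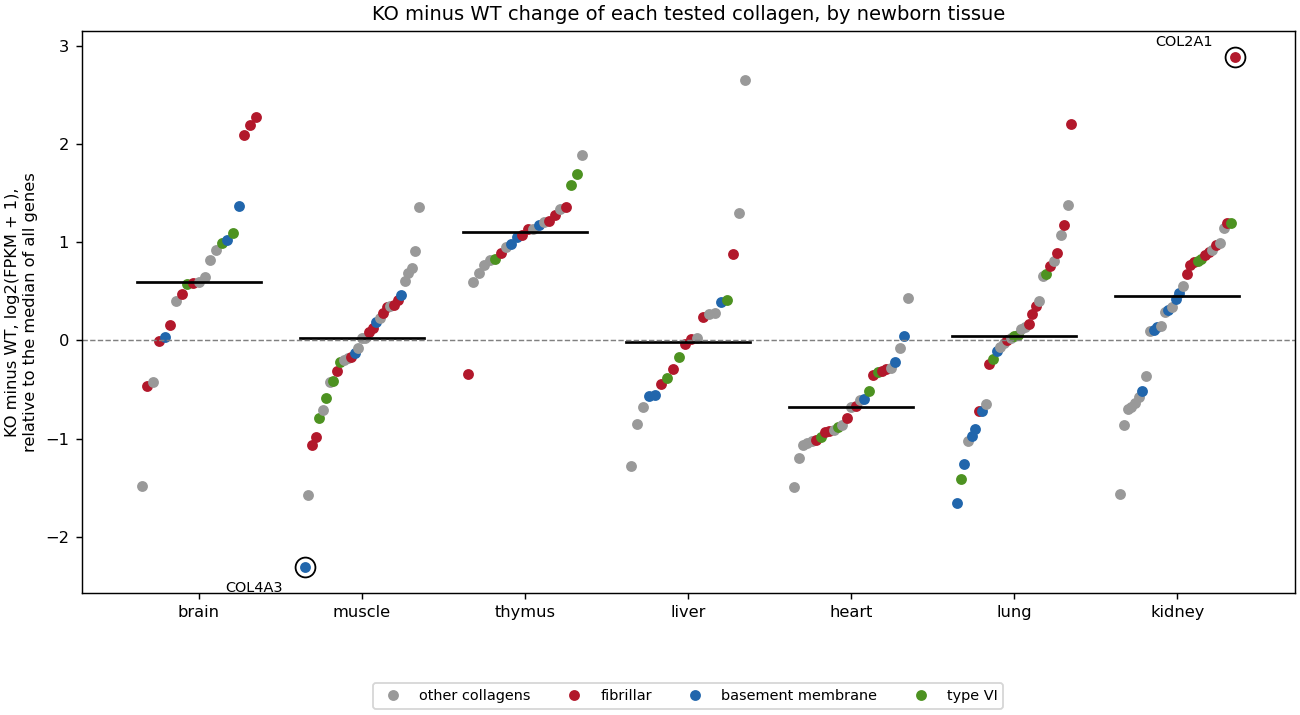
KO minus WT change of every tested collagen in each newborn tissue, as log2(FPKM + 1) relative to the median of all genes tested (dashed line at 0), coloured by class and ordered by size within a tissue. Black bars are the collagen medians, and rings mark the 2 changes past the threshold, COL2A1 in kidney at 2.89 and COL4A3 in muscle at -2.31. The points lie mostly above 0 in thymus and mostly below 0 in heart.

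Thymus and heart showed shifts in opposite directions across most collagens, with no single member past the threshold. In thymus 21 of the 22 tested lay above the all-gene median, with a median log2 change of 1.10, and 18 had both mutants above both wild types and none had both below, where 14.5% and 27.7% of all genes did. No collagen was called, beside 0.00772% of all genes, and 10 had an unadjusted p under 0.05. Such unadjusted counts, here and below, have no share of all genes given beside them and are not read as a result about collagens. COL6A1, at 70.9, 43.3, 20.1 and 21.5 FPKM, changed by 1.58 (SE 0.46, limma adjusted p = 0.70) and COL6A2, at 106, 58.3, 25.2 and 29.7, by 1.70 (adjusted p = 0.70). COL17A1, the collagen characteristic of this tissue, was at 21.4, 14.4, 9.27 and 7.33. COL1A1, at 125, 57.3, 67.4 and 31.4, overlapped because KO3 was below WT2. Fibroblast markers summed to 155 to 239 FPKM in mutant and 98.0 to 110 in wild-type thymus libraries. Skeletal muscle markers summed to 13 to 98.8 against 3.78 to 8.42, with ACTA1 at 5.63, 19.3, 0.572 and 0.269, and the part of both lists was not tested.

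In heart 25 of the 27 tested lay below the all-gene median, with a median of -0.68, and 18 had both mutants below both wild types and 1 had both above, where 16.8% and 19.3% of all genes did. None was called, beside 0.18% of all genes, and 11 had an unadjusted p under 0.05. COL1A1 was at 216, 291, 732 and 382 FPKM (-1.01, SE 0.37, limma adjusted p = 0.36), COL15A1 at 19.1, 37.5, 72.2 and 59.2 (-1.20, adjusted p = 0.30), and COL12A1, a FACIT of tendon and muscle sheaths, at 2.75, 8.86, 22.7 and 12.2 (-1.49, adjusted p = 0.33). For each of these both mutants were below both wild types. COL3A1 (242, 287, 479 and 256) and COL4A1 (63.5, 133, 128 and 97.5) overlapped. The fibroblast marker sums of heart overlapped, at 329 to 442 FPKM in mutant and 397 to 602 in wild-type libraries. The microfibril gene MFAP5, on that list, fell by 2.90 (limma adjusted p = 0.047) but does not stand for the list. PDGFRA (-1.5), PDGFRB (-0.86), PI16 (-0.7), TCF21 (-0.45), DCN (-0.41) and THY1 (-0.02) lay below 0. DPT (0.73), FBLN1 (0.13) and LUM (0.04) lay above, and none of these passed. Smooth muscle and pericyte markers did not overlap, at 226 to 269 against 470 to 543, and their part was not tested. With each animal left out in turn, the collagen median stayed between 0.79 and 1.50 in thymus and between -0.81 and -0.45 in heart. Without a level filter it was 0.48 in thymus and -0.40 in heart.

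In lung the classes parted, with the 6 basement membrane members below the all-gene median and all 7 cartilage types tested above it. COL4A3 was at 5.61, 4.14, 12.3 and 17.5 FPKM (log2 change -1.26, SE 0.45, limma adjusted p = 0.62) and COL4A4 at 3.89, 2.73, 6.77 and 10.4 (-0.97, adjusted p = 0.68). Both mutants were below both wild types for each of these, and also for COL4A1 (130, 88.2, 144 and 279), COL4A2 (109, 115, 191 and 293) and COL4A6 (1.39, 2.09, 17.8 and 4.01). Over all 33 members tested, 9 had both mutants below, where 26.3% of all genes did, and 7 had both above, where 11.3% did. No collagen and no other gene passed in lung, so the background is 0% of all genes, and 6 collagens had an unadjusted p under 0.05. COL1A1 (285, 263, 269 and 353) overlapped. In lung libraries the fibroblast markers summed to 753 to 778 FPKM in mutants and 448 to 568 in wild types, and smooth muscle and pericyte markers to 610 to 716 against 948 to 1150. Endothelial markers overlapped, at 496 to 631 against 509 to 873. The lung's own markers summed to 1680 to 2110 against 18700 to 20300, and the part of these lists was not tested.

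Brain and liver held no called collagen, and in brain KO2 stood apart. In brain none of 21 passed, beside 0% of all genes, and none had an unadjusted p under 0.05. Both mutants were above both wild types for 3 (15.3% of all genes) and below for 2 (35.1%). In KO2 brain COL1A1 was at 41.9 FPKM against 8.92, 1.33 and 9.3 in KO3, WT2 and WT3, and COL3A1 was at 75.1 against 9.48, 3.91 and 10.9. COL26A1, the collagen characteristic of brain, was at 4.81 in KO2 and 22.8, 31.4 and 43.4 in the others (-1.48, SE 0.69, limma adjusted p = 0.39). Brain calls made without KO3 rest on KO2 alone on the mutant side. Skeletal muscle markers summed to 67.0 to 135 FPKM in mutant and 5.55 to 6.96 in wild-type brain libraries, and were higher in KO3 than in KO2 (ACTA1 66.4 and 38.5). TTR, on the liver list, was at 110, 1.77, 0.929 and 0.404. SERPINA1, the other member of that list tested in brain, changed by -0.86, so TTR does not stand for the list. Brain fibroblast sums overlapped at 169 to 181 against 173 to 287, but the tested members went both ways. LUM (2.46), DCN (1.58), FBLN1 (1.52) and PI16 (1.43) lay above 0, and PDGFRA (-1.89), THY1 (-1.1) and PDGFRB (-0.25) below, none past the threshold. The part of these lists was not tested. In liver none of 20 passed, beside 1.1% of all genes, and 4 had an unadjusted p under 0.05. Both mutants were above for 3 (15.8% of all genes) and below for 6 (31.6%). COL18A1, at 217, 175, 234 and 205 FPKM, changed by 0.02 (SE 0.40, adjusted p = 0.88). COL9A3 was at 15.7, 11, 5.22 and 0.0683 (2.65, SE 0.72, adjusted p = 0.15), and it passed with the animal number as a replicate block. COL1A1 in liver was at 87.4, 19.3, 48.4 and 49.3, so the mutants lay on both sides of the wild types. Liver fibroblast markers summed to 63.7 to 89.5 FPKM in mutant and 92.7 to 142 in wild-type libraries, but the tested members went both ways. DCN (-1.18), PDGFRA (-0.63) and THY1 (-0.24) lay below 0. FBLN1 (1.12), TCF21 (0.64), LUM (0.57), PI16 (0.47), PDGFRB (0.39) and DPT (0.33) lay above, and none passed the threshold. The osteoblast list summed to 67.8 to 97.0 against 8.09 to 30.7, nearly all of it ALPL. IBSP, SP7 and DMP1 of that list were too low to be tested in liver, so its sum is a reading of ALPL and not of osteoblasts. Their part was not tested.

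Averaged over the 7 tissues of each animal, none of 35 collagens passed, beside 0.492% of all genes, and 4 had an unadjusted p under 0.05. Their median was 0.16. COL2A1 had the highest change at 1.06 (SE 0.25, limma adjusted p = 0.14). Among the collagen-making enzymes P4HA1 passed, at 2.01 (SE 0.32, adjusted p = 0.02). Tested as a difference from the mean mutant change in the other 6 tissues, none of 35 collagens passed in any of the 7 tissues, beside 0.00665% of all genes in brain, 0.0532% in muscle, 0.00665% in thymus, 0.359% in liver, 0.193% in heart, 0.00665% in lung and 3.54% in kidney. The numbers with an unadjusted p under 0.05 were 20 in thymus, 20 in heart, 11 in kidney, 8 in liver, 7 in muscle, 7 in lung and 5 in brain. The shares of all genes under that p are not given here, so these numbers are not read as a result about collagens. Closest to the threshold were COL14A1 in kidney (1.10, SE 0.24, adjusted p = 0.058), COL4A4 in kidney (0.84, adjusted p = 0.078), COL4A3 in muscle as given above, and COL23A1 in heart (-1.43, adjusted p = 0.098).

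The third question was how collagens changed between gestation months 2 and 4. In fetal muscle 12 of 33 tested collagens passed, 7 higher and 5 lower at month 4, beside 22.3% and 15.7% of all genes. Both month 4 libraries were above both of month 2 for 13, where 44.3% of all genes were, and below for 8, where 29.2% were. The called counts were thus near the shares over all genes, and the counts of members that did not overlap were lower than those shares give. The 5 that fell were 3 cartilage types, COL21A1 and COL23A1. Values follow for the 2 libraries of month 2 and then the 2 of month 4.

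Of the fibrillar collagens that rose, COL3A1 was at 763 and 719, then 3130 and 1340 FPKM (log2 change 1.30, SE 0.34, limma adjusted p = 0.0081), and COL1A2 at 1640 and 1530, then 3920 and 2080 (0.68, adjusted p = 0.045). COL1A1, at 3100 and 3320, then 6750 and 4130, was not called. Library 1 of month 4 was the higher one for all 3, and the months did not overlap. COL4A2 was at 42.3 and 49.4, then 162 and 116 FPKM (1.40, SE 0.20, adjusted p = 0.00042), and COL4A1 at 114 and 97.5, then 188 and 154 (0.52, adjusted p = 0.017). The ratio of COL4A1 to COL4A2 was thus 2.69 and 1.97 at month 2 and 1.16 and 1.32 at month 4. COL15A1 went from 44 and 43 to 90 and 90.5 (0.87, adjusted p = 0.0013), COL6A3 from 37.4 and 34.0 to 91.1 and 52.9 (0.78, adjusted p = 0.013), and COL14A1, a FACIT of tendon and dermis, from 14 and 11.6 to 48.7 and 17.3 (0.97, adjusted p = 0.036).

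Those that fell did so in both month 4 libraries. COL21A1, a FACIT, was at 33.1 and 28.8, then 7.94 and 6.47 FPKM, and had the lowest log2 change at -2.13 (SE 0.19, limma adjusted p = 1e-04). COL9A3 went from 9.10 and 13.2 to 2.41 and 2.57 (-1.95, adjusted p = 4e-04), and COL23A1, a transmembrane collagen, from 15.8 and 13.3 to 4.18 and 4.15 (-1.75, adjusted p = 0.00034). COL2A1 went from 37.0 and 36.0 to 12.1 and 18.5 (-1.39, adjusted p = 0.002) and its partner COL11A2 from 51.6 and 56.9 to 22.7 and 42.4 (-0.94, adjusted p = 0.038). All 7 cartilage types tested lay below the all-gene median. Other cartilage types did not pass, with COL11A1 at 15.9 and 14.2, then 14.5 and 9.71, and COL9A1 at 4.43 and 5.49, then 7.21 and 3.56. Chondrocyte markers summed to 15 to 20.1 FPKM at month 2 and 21.2 to 35.7 at month 4, with COMP among them higher. The other markers are not given singly, so neither COMP nor the sum stands for the list. The part of these markers in the collagen levels was not tested.

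The fetal muscle calls rested on few libraries, and their number changed with the library left out. Without a level filter 2 passed. The shares of all genes called under these alternatives are not given here. Across the matrix genes, to be read beside the 22.3% of all genes higher and 15.7% lower, 6 of 13 fibril and matrix partners rose and 1 fell, including BGN (1.38, limma adjusted p = 0.014) and the basement membrane linker NID1 (0.61, adjusted p = 0.027), with LAMA2 lower. Of 20 folding and modification enzymes 3 were higher, a count no larger than the share over all genes, including P4HA1 (1.33, adjusted p = 0.0035), and 2 lower, among them PPIB, a chaperone of the collagen helix (-1.13, adjusted p = 0.0043). Of 10 cleavage and cross-linking genes 3 rose, including the cross-linking oxidase LOX (1.36, adjusted p = 0.035) and PCOLCE2 (2.03, adjusted p = 0.00094), and 2 fell. Both inhibitors of matrix proteases that passed, TIMP3 (2.07, adjusted p = 0.00029) and TIMP2, rose. Fibroblast markers summed to 529 to 579 FPKM at month 2 and 709 to 1320 at month 4, and endothelial markers to 164 to 170 and 225 to 254, and their part in the collagen levels was not tested.

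**Figure D4:**
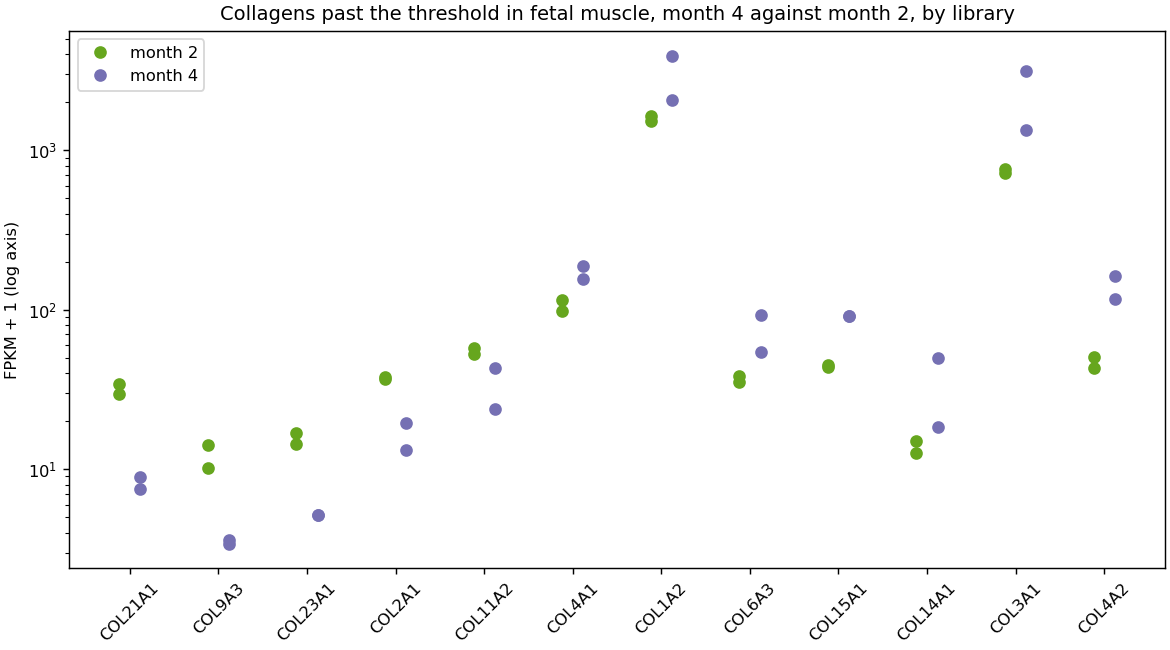
FPKM + 1 on a log axis for the 12 collagens past the threshold in fetal muscle, 1 point per library, green for month 2 and purple for month 4, ordered from the lowest to the highest log2 change. The months do not overlap for any of the 12, and the 2 month 4 libraries differ most for COL14A1 and COL3A1.

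In fetal brain 1 of 22 tested collagens passed, COL9A3, which was higher at month 4, beside 3.28% of all genes higher and 0.732% lower. Both month 4 libraries were above both of month 2 for 5 (30.7% of all genes) and below for 3 (20.4%). It was at 4.45 and 3.02 FPKM at month 2 and 10.6 and 19.0 at month 4 (log2 change 1.64, SE 0.30, limma adjusted p = 0.017). Its change in muscle was of the opposite sign, though the difference between the tissues was not tested. The brain call was lost with quantile normalisation (adjusted p = 0.054) and without a level filter (0.36). It was also lost without either month 4 library (0.17 and 0.28). COL26A1 was at 4.38 and 13.1, then 24.0 and 15.9 and was not called. Library 1 of month 4 held more fibrillar collagen than library 2, with COL1A1 at 55.1 against 6.04 FPKM and COL3A1 at 36.9 against 3.45, and month 2 lay between (8.01 and 21.6, and 3.97 and 14.5).

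Set against each other, fetal brain and fetal muscle differed in most collagens. At month 2, 27 of 31 were lower in brain and none higher, beside 25.6% of all genes lower and 49.2% higher. At month 4, 25 of 32 were lower and 3 higher, beside 21.2% and 38.6% of all genes. Fibrillar members were lower in 10 of 10 cases at both months. COL1A1 was at 8.01 and 21.6 FPKM in brain and 3100 and 3320 in muscle at month 2, a log2 change of -8.28 (SE 0.41, limma adjusted p = 3.1e-05), and -8.38 at month 4. Next at month 2 were COL1A2 (-7.57), COL3A1 (-6.87), COL6A2 (-6.62), COL6A1 (-5.95) and COL16A1 (-5.93). At month 4 they were COL1A2 (-8.01), COL3A1 (-7.63), COL6A1 (-5.77), COL15A1 (-5.67) and COL5A1 (-5.46). The 3 that were higher in brain at month 4 were COL26A1 (1.98, adjusted p = 4.5e-05), COL9A3 (1.80, adjusted p = 1.7e-04) and COL9A2 (0.61, adjusted p = 0.0051). These are also among the 4 that were higher in newborn wild-type brain than in its other tissues.

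The fetal and newborn tables were normalised separately, so levels across them are set side by side with no test. COL21A1 was at 6.47 to 33.1 FPKM in fetal muscle and 2.63 and 0.977 in newborn wild-type muscle. COL4A3 was listed at 0.00979 and 0 at month 2, at 0.873 and 1.46 at month 4, and 6.01 and 4.64 in newborn wild-type muscle, against 0.173 and 0.362 in newborn mutant muscle. COL16A1, a FACIT, was at 97.3 and 106, then 88.9 and 60.8 in fetal muscle and at 28.5 and 14.8 in newborn wild-type muscle.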

How the data were processed

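Bulk RNA was sequenced from tissues of 4 newborn and an unstated number of fetal cynomolgus monkeys. Per the submitters' processing notes, the authors used CASAVA, HISAT 0.1.6 and Cufflinks 2.0.2; their roles, the build, the annotation and whether strand was used were not stated, so reads of overlapping or antisense genes may be mixed. FPKM values were deposited in a newborn table (56 libraries) and a fetal table (8 libraries), normalised apart, each listing 28141 genes. Depth is unknown, since low values form no fixed steps.

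The log2(FPKM + 1) values of the 2 libraries per animal and tissue were averaged, and limma 3.58.1 in R 4.3.3 (lmFit, eBayes with trend) was fitted to genes whose mean over the compared libraries reached 1 FPKM. Genes were called at an adjusted p under 0.05 (Benjamini-Hochberg, all genes tested); adjusted p-values without a named test are from this fit. Log2 changes are relative to the all-gene median of the comparison. The scripts were run on simulated data, which checks the code and does not show how well calls hold at the spread of these animals.

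Tissues of one wild-type animal share their animal, and deviations of the same animal correlated at 0.17 to 0.47 over 21 tissue pairs. Numbers do not pair mutant with wild-type animals (-0.1 to 0.09).

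Members, gene lists and rules were chosen with earlier results of these data known. Always named were COL1A1, COL1A2, COL3A1, COL4A1 to COL4A6, COL2A1, COL9A1, COL11A1, COL6A1 and COL6A3, with every member past the threshold between genotypes, the 6 highest and 6 lowest in fetal comparisons, and the 3 highest and 3 lowest in each wild-type tissue. Other members named with genotype or fetal values were chosen after their values were seen. COL22A1 is listed under another identifier and is not a member. The alternatives tried were quantile normalisation, a filter at 5 FPKM or none, a smaller pseudocount (0.1), a block on the replicate number, and omission of 1 animal or fetal library at a time.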

Additional observations from a re-analysis of the deposited data

Results flagged for a closer look

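Among 370 groups of 4 libraries (a collagen with a mean of 1 FPKM or more in a tissue and genotype), 4 had a library whose gap to the others exceeded Dixon's 95% critical value. For independent values, chance alone flags about 1 group in 20. COL5A3 was at 20.9 FPKM in WT3 muscle library 1 and 23.2 to 23.5 in the other wild-type muscle libraries. COL12A1 was at 2.32 in WT2 brain library 2 and 1.97 to 2.03 in the others. COL6A3 was at 4.04 in WT3 thymus library 1 and 4.75 to 4.82 in the others, and COL14A1 at 5.52 in KO2 kidney library 1 and 6.54 to 6.63 in the other mutant libraries. The 4 libraries of a group come from 2 animals, so they are not independent, and the rate of 1 in 20 does not hold for them.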

How the results depend on the processing

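Of 213 recomputed counts of called collagens, 171 stayed within 1.5 times the count reported. The 171 include reported counts of 0 that stayed at 0, for which a limit of 1.5 times has no meaning. The share of all genes called under each alternative is not given beside these counts, so they show only how collagen calls moved. The KO against WT count in muscle went from 1 to 0 without a level filter, with a filter at 5 FPKM and with quantile normalisation. In kidney it went from 1 to 0 without a filter, to 2 at 5 FPKM and to 8 with quantile normalisation. In fetal brain it went from 1 to 0 without a filter, to 2 at 5 FPKM and to 0 with quantile normalisation, and in fetal muscle from 12 to 2 without a filter. With the filter at 5 FPKM fewer genes are tested, and the wild-type counts were 19 in brain, 19 in thymus, 16 in liver and 8 in kidney, while the muscle difference from other tissues had 1. The replicate block, with numbers that no label ties to an animal, litter or day across the genotypes or the fetal groups, moved the liver count from 0 to 1 (COL9A3) and no other count by more than 1.5 times. Same-numbered fetal libraries correlated at 0.37 between brain and muscle at month 4, -0.02 at month 2, and -0.24 (brain) and 0.08 (muscle) between months, so whether they share a fetus is not known. In the wild-type tissues, which share their animals, it left 198 values on their side of the threshold and added 2, COL4A5 in liver (adjusted p = 0.02) and COL1A2 in lung (0.044). COL6A5 in wild-type muscle was -0.34 without a filter and -0.16 with quantile normalisation.

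Leaving out 1 animal gave 0 to 9 called collagens between genotypes in brain (9 without KO3), 0 to 3 in muscle (0 without WT2, 3 without WT3), 0 to 3 in thymus, 0 to 1 in liver, 0 to 1 in heart, 1 to 4 in kidney (4 without KO3, 3 without KO2) and 0 to 1 in the mean of tissues. The thymus, heart and mean maxima came without KO3 and that of liver without WT2. For the mutant change against other tissues the ranges were 0 to 10 in brain (10 without KO3), 0 to 3 in muscle, 0 to 2 in thymus, 0 to 1 in liver, 0 to 1 in heart, 0 to 1 in lung and 0 to 4 in kidney. Leaving out 1 library gave 0 to 6 in fetal brain (0 without either library of month 4, 5 and 6 without library 1 and 2 of month 2) and 6 to 20 in fetal muscle. An arm left with 1 sample is assumed to vary like the other. The cause of these changes was not tested. Depth is unknown, and the 2 animals per genotype limit the precision.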
